A study of Sus scrofa with 9 samples.

Results

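The genes described here encode enzymes that remove reactive oxygen species, the enzymes that make and recycle glutathione, and the NRF2 axis. A list of 37 gene symbols was matched to the deposited tables, and a gene was kept where both tables had a row for it. This gave 36 genes. The first table, of 18933 genes, holds Obese-MSCs and Lean-MSCs. The second, of 18992 genes, holds Obese-MSCs with and without added vitamin-C. HMOX1, the stress-inducible heme oxygenase, had no row and was not analysed here. All 8 glutathione peroxidase (GPX) genes were present.

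MSCs are mesenchymal stem/stromal cells, here grown from subcutaneous abdominal fat of female domestic pigs that were 3 months old when assigned to a diet. Lean pigs ate standard chow and Obese pigs a high-fat/high-fructose diet for 16 weeks. There were 3 libraries of Lean-MSCs (replicates 7, 8 and 9), 3 of untreated Obese-MSCs (replicates 1, 2 and 3), and 3 of Obese-MSCs kept for 48 h in 50 µg/mL vitamin-C (replicates 4, 5 and 6). The authors state that the growth medium itself held some vitamin-C and that its effect may therefore be underestimated. Here, untreated or without vitamin-C means without the added dose. Cells of the vitamin-C experiment were past the third passage, and no genetic change was made in any group. The labels match no treated culture to an untreated one of the same pig, so all tests were unpaired. In both tables a test measures the spread between cultures, which includes any spread between pigs.

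5-Hydroxymethylcytosine (5hmC) is the oxidized form of methylated cytosine that TET enzymes produce, with vitamin-C as a cofactor. In hMeDIP-seq an antibody pulls out the DNA fragments that carry this mark, and these are sequenced. The value of a gene is the normalized count of such reads over its exons. It measures a mark on DNA, neither mRNA nor enzyme activity.

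Cells turn superoxide into hydrogen peroxide with superoxide dismutases, and remove the peroxide with catalase, peroxiredoxins and glutathione peroxidases. Glutathione peroxidases oxidize glutathione, which glutathione reductase restores with NADPH, while thioredoxins and their reductases serve the peroxiredoxins. NRF2, the product of NFE2L2, switches on many of these genes under oxidative stress and is held in check by KEAP1.

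Libraries of the first table summed to 494566 to 522269 normalized counts each, and those of the second to 547242 to 593846. The 36 genes together took 0.143% to 0.190% of a library. The reads behind each value are unknown. In the 3 libraries where low values were whole multiples of a step (within 0.1 of it), the step was 1.00 to 1.03 normalized counts, so low values rest on few reads. In all, 18 of the 36 genes had a mean under 10 in the first table and 16 in the second. A group mean of 3 normalized counts or less was treated as a floor, and no ratio is given against it. Ratios are of group means, on the log2 scale, unless limma is named. Exon lengths were not used, so levels are not compared between genes.

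Genes were called by the study's criteria, which ask for an unadjusted p of 0.05 or less in a two-sided equal-variance test together with a ratio of at least 1.4 (higher) or at most 0.7 (lower). Limma on log2(value + 1), with Benjamini-Hochberg adjustment over all genes tested, was run beside it. Single genes were also compared by exact permutation of the library labels, two-sided, which cannot give a p below 0.1 with 3 libraries against 3.

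The glutathione peroxidase family was examined first. GPX3 had higher 5hmC in Obese-MSCs than in Lean-MSCs and was the 1 family member of 8 that met the criteria there, where 2.07% of all genes were called higher and 2.43% lower. Family means were higher in Obese-MSCs for 5 genes (GPX1, GPX2, GPX3, GPX4 and GPX7) and lower for 3 (GPX5, GPX6 and GPX8), while 51.2% of all genes had the higher mean there. None of the 8 met the criteria when Obese-MSCs with and without vitamin-C were compared, where 1.11% of all genes were called higher and 0.806% lower.

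GPX3, the glutathione peroxidase secreted into plasma, lies at chr16:71980467-71989011 of Sscrofa11.1, and no other RefSeq gene overlaps it. Its 5hmC was 38.4, 22.6 and 36.3 normalized counts in Obese replicates 1, 2 and 3, and 8.07, 9.92 and 16.4 in Lean replicates 7, 8 and 9. Every Obese library lay above every Lean library. The means were 32.5 ± 8.57 and 11.5 ± 4.37 (SD, n = 3 each), a ratio of 2.83 (log2 1.5, and 1.30 to 1.85 when each library was left out in turn). The exact permutation test gave its smallest p, 0.1. Limma gave a log2 difference of 1.45 (SE 0.33, 95% interval 0.76 to 2.13) with an unadjusted p of 0.000297 and an adjusted p of 0.583. The criteria were lost without Obese replicate 1, Obese replicate 3, Lean replicate 7 or Lean replicate 8, although the log2 ratio stayed at 1.30 or above.

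In the vitamin-C table, GPX3 had 35.2, 21.1 and 55.8 normalized counts in treated replicates 4, 5 and 6, and 42.5, 25.9 and 40.0 in the untreated libraries. Treated replicate 6 was the highest of all and treated replicate 5 the lowest, so the groups overlapped. The means were 37.4 ± 17.5 and 36.1 ± 8.95 (SD, n = 3 each), with a log2 ratio of 0.05. The limma interval of the difference ran from -0.76 to 0.71.

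GPX1, the widely expressed cytosolic member, had 41.4, 22.7 and 13.5 normalized counts in Obese-MSCs and 16.0, 21.8 and 23.6 in Lean-MSCs. The highest and the lowest values were both from Obese-MSCs, and the log2 ratio of 0.34 turned to -0.18 without Obese replicate 1. With vitamin-C its values were 15.1, 29.6 and 52.3, against 45.4, 25.8 and 15.0 without. Both groups spanned about the same range (log2 ratio 0.17).

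GPX2, known from the gut epithelium, had 19.6, 15.1 and 15.4 normalized counts in Obese-MSCs and 23.4, 8.92 and 14.4 in Lean-MSCs, and the Lean libraries enclosed the Obese ones. Its values were 27.1, 7.25 and 12.4 with vitamin-C and 21.7, 17.2 and 17.0 without, and here the treated libraries enclosed the untreated ones. The log2 ratios were 0.10 and -0.25, the latter -0.92 without treated replicate 4. The span of CHURC1 overlaps GPX2, and their exonic reads may not be separable.

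GPX4 reduces lipid hydroperoxides in membranes and protects cells from ferroptosis. Its 5hmC was 17.6, 10.4 and 5.05 normalized counts in Obese-MSCs and 8.91, 4.96 and 5.15 in Lean-MSCs, with a log2 ratio of 0.80. Obese replicates 1 and 2 lay above all Lean libraries and Obese replicate 3 did not (exact permutation p = 0.3). In the vitamin-C table the values were 12.1, 6.39 and 12.6 in treated and 19.3, 11.8 and 5.69 in untreated libraries (log2 ratio -0.25), and the untreated libraries enclosed the treated ones.

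GPX5 and GPX6, best known from the epididymis and the olfactory epithelium, are neighbours on chromosome 7 (chr7:22289432-22300727 and chr7:22256013-22267992). How reads that match several family members were handled is not given in the sources used here. GPX5 had 0.578, 5.76 and 2.40 normalized counts in Obese-MSCs and 12.1, 2.97 and 5.15 in Lean-MSCs. GPX6 had 1.43, 0.913 and 5.63 in Obese-MSCs and 6.85, 4.96 and 12.3 in Lean-MSCs. Both had Obese means under the floor (2.91 for GPX5 and 2.66 for GPX6) and overlapping groups, GPX6 by Obese replicate 3 alone.

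Limma gave GPX6 a log2 difference of -1.44 (SE 0.56, unadjusted p = 0.0176, adjusted p = 0.679), a difference that depends on the pseudocount at such low values. With vitamin-C, GPX5 had 10.1, 4.57 and 5.31 normalized counts against 0.744, 6.34 and 2.67 without (log2 ratio 1.03). GPX6 had 5.03, 4.59 and 7.22 with vitamin-C and 1.65, 1.12 and 6.07 without, and the untreated mean of 2.95 was under the floor. In both genes 1 untreated library reached into the range of the treated ones.

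GPX7 and GPX8 reside in the endoplasmic reticulum. GPX7 had 8.0, 6.66 and 1.41 normalized counts in Obese-MSCs and 0.0847, 0.987 and 8.15 in Lean-MSCs, where Lean replicate 9 was the highest of all 6. Its values were 4.02, 3.72 and 1.72 with vitamin-C and 8.77, 7.48 and 1.7 without. The log2 ratios of 0.80 and -0.92 both rest on overlapping groups. GPX8 had 3.25, 1.89 and 0.0690 in Obese-MSCs, 1.19, 1.98 and 3.07 in Lean-MSCs, and 0.00175, 3.8 and 0 against 3.54, 2.15 and 0.115 with and without vitamin-C. All of its group means were under the floor.

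**Figure D1:**
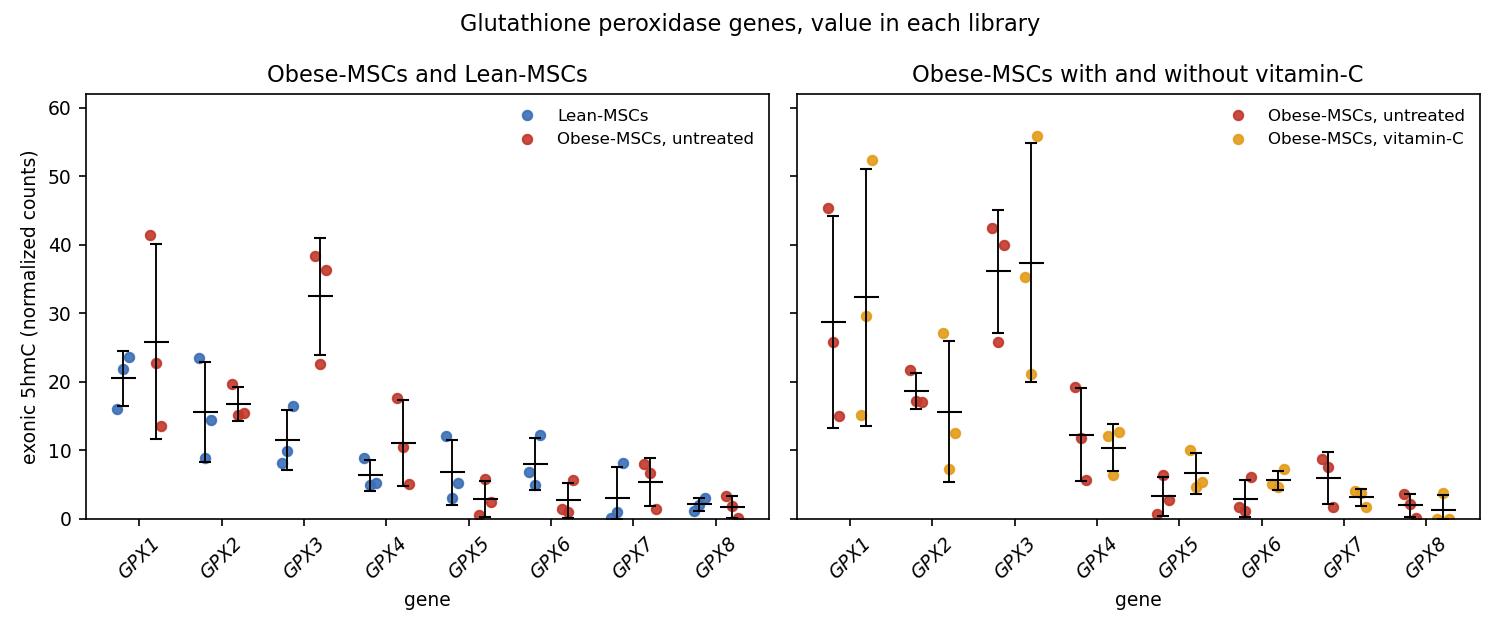
Exonic 5hmC (vertical axis, normalized counts) of the 8 glutathione peroxidase genes in each library (points), with the group mean and SD (bars, the lower bar stopped at 0) for Lean, untreated Obese and vitamin-C-treated Obese-MSCs, 3 libraries each. The left panel shows GPX3 at 22.6 or above in all Obese libraries and at 16.4 or below in all Lean libraries, and the right panel shows its treated libraries on both sides of the untreated ones.

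Across all 36 genes, 1 had higher 5hmC (GPX3) and 2 had lower 5hmC (GSS and TXNRD3) in Obese-MSCs by the criteria, 2.78% and 5.56% of the genes. Among all genes of the table the criteria called 2.07% higher and 2.43% lower. No Obese library overlapped the range of the Lean libraries for 3 genes higher in Obese-MSCs (GPX3, PRDX1 and MSRB1) and for 3 lower (GSS, TXNRD3 and MSRA), 8.33% each, where the whole table had 5.70% higher and 6.06% lower. These shares rest on 1 to 3 genes each, and nothing particular to the list is read from them.

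Limma tested 33 of the 36 genes and gave 0 with an adjusted p of 0.05 or less, as it did for all 15146 genes tested (0%). At an unadjusted p of 0.05 or less it gave 4 (GPX3, GPX6, TXNRD3 and GSS), 12.1% of those tested against 6.81% of all genes. Group means were higher in Obese-MSCs for 23 of the 36 genes (63.9%, against 51.2% of all genes). That count includes genes with a group mean under the floor, such as SOD2 and MSRB1. The median log2 ratio of the 29 genes above the floor was 0.10, and that of all genes above it 0.01. Leaving out 1 library turned the sign of 16 of the 29 ratios, a count not made over all genes. Of these 29, 24 lay within the central 95% of all genes, from -0.84 to 0.80. The other 5 were GPX3 and PRDX1 above, GPX4 and GPX7 just at the upper limit, and GSS below.

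Glutathione is built by glutamate-cysteine ligase, with the subunits GCLC and GCLM, and then by glutathione synthetase, GSS. GSS, at chr17:38316199-38342253, had lower 5hmC in Obese-MSCs, with 5.40, 6.66 and 4.78 normalized counts against 14.6, 10.9 and 11.3 in Lean-MSCs. The groups were well apart, since the highest Obese value of 6.66 stood against a lowest Lean value of 10.9. The means were 5.61 ± 0.955 and 12.3 ± 2.02 (SD, n = 3 each), a ratio of 0.457 (log2 -1.13, and -1.27 to -0.99 with a library left out). The exact permutation test gave its smallest p, 0.1. Limma gave a log2 difference of -1.01 (SE 0.37, 95% interval -1.77 to -0.24), an unadjusted p of 0.0132 and an adjusted p of 0.679. GSS met the criteria whichever library was left out.

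In the vitamin-C table GSS was the 1 gene of the 36 that met the criteria, with higher 5hmC after treatment. Its values were 8.05, 10.2 and 8.94 normalized counts with vitamin-C and 6.02, 7.48 and 5.30 without. The groups did not overlap, but the gap between the lowest treated and the highest untreated library was under 1 normalized count. The means were 9.06 ± 1.08 and 6.27 ± 1.11 (SD, n = 3 each), a ratio of 1.45 (log2 0.53), with an exact permutation p of 0.1. Limma gave a log2 difference of 0.48 (SE 0.39, 95% interval -0.35 to 1.30), an unadjusted p of 0.239 and an adjusted p of 1.00. The criteria were lost without treated replicate 5, treated replicate 6, untreated replicate 1 or untreated replicate 3.

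The same untreated libraries enter both comparisons of GSS, so its lower value against Lean-MSCs and its higher value after vitamin-C are not independent. An uncharacterized gene, LOC106506661, overlaps the span of GSS. GCLC and GCLM differed little between Obese-MSCs and Lean-MSCs (log2 ratios 0.16 and -0.22) and between treated and untreated cells (-0.14 and 0.14). GSR, glutathione reductase, had the highest Obese to Lean ratio of the group (0.52), with overlapping groups, and the lowest with vitamin-C (-0.42).

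Thioredoxin reductases are selenoenzymes that keep thioredoxins reduced, and TXNRD3 is the form known from testis. TXNRD3, at chr13:73276249-73336782, had 3.61, 9.54 and 7.05 normalized counts in Obese-MSCs and 11.3, 11.9 and 12.3 in Lean-MSCs. The Lean libraries lay close together and all above the Obese ones, which were spread widely. The means were 6.73 ± 2.98 and 11.9 ± 0.494 (SD, n = 3 each), with a log2 ratio of -0.82 (-1.15 to -0.52 with a library left out) and an exact permutation p of 0.1. Its limma adjusted p was 0.733. It met the criteria without Obese replicate 1 or Obese replicate 2 and lost them without Obese replicate 3 or without any of the Lean libraries.

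With vitamin-C TXNRD3 had 12.1, 8.30 and 8.0 normalized counts, against 4.16, 10.6 and 7.76 without, and the groups overlapped (log2 ratio 0.33). TXN, TXN2, TXNRD1 and TXNRD2 had Obese to Lean log2 ratios between -0.17 (TXNRD1) and 0.05 (TXN and TXNRD2), and none met the criteria. In TXNRD1, Lean replicate 7 stood at 89.4 while the other two Lean libraries had 31.8 and 28.9, and without replicate 7 the ratio turned to 0.56. With vitamin-C the highest ratio of the group was that of TXN2 (0.35) and the lowest that of TXNRD2 (-0.14). Both moved with treated replicate 6. Without it the TXN2 ratio turned to -0.06, with this library at 76.5 beside 36.2 and 41.6, and the TXNRD2 ratio went to -0.92, while TXNRD2 turned to 0.21 without treated replicate 5.

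Peroxiredoxins reduce peroxides with a reactive cysteine, and sulfiredoxin (SRXN1) repairs them after overoxidation. PRDX1, the abundant cytosolic member, had 6.99, 5.66 and 8.17 normalized counts in Obese-MSCs and 5.56, 3.97 and 2.07 in Lean-MSCs. The groups did not overlap, by 0.1 normalized count, and the gene did not meet the criteria (log2 ratio 0.84, exact permutation p = 0.1, limma adjusted p = 0.811). With vitamin-C it had 9.05, 2.70 and 5.35 against 7.77, 6.47 and 8.96, and the treated libraries enclosed the untreated ones. Of the other members with a ratio, PRDX6 was lowest (-0.18) between Obese-MSCs and Lean-MSCs, and PRDX1 itself was highest. With vitamin-C the ratios ran from -0.46 (PRDX4) to 0.15 (PRDX3). PRDX5 was under the floor in every group, and PRDX2, PRDX3 and SRXN1 did not meet the criteria in either table.

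Superoxide dismutases lie in the cytosol (SOD1), the mitochondrion (SOD2) and outside the cell (SOD3). SOD1 had 5.31, 6.63 and 8.15 normalized counts in Obese-MSCs and 3.51, 6.95 and 7.18 in Lean-MSCs. SOD2 had 11.3, 2.76 and 7.08 in Obese-MSCs and 2.3, 0 and 6.12 in Lean-MSCs, whose mean of 2.81 was under the floor. SOD3 had 14.9, 8.46 and 15.2 in Obese-MSCs and 15.8, 11.9 and 16.4 in Lean-MSCs. The groups overlapped in all 3 genes, and the log2 ratios were 0.19 for SOD1 and -0.20 for SOD3.

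With vitamin-C, SOD1 had 17.1, 5.47 and 4.32 normalized counts against 5.97, 7.51 and 8.93 without. SOD2 had 12.1, 2.70 and 2.57 against 12.3, 3.32 and 7.81, and in both genes treated replicate 4 was well above the other treated libraries. SOD3 had 9.06, 13.0 and 10.7 against 16.5, 9.74 and 16.7, a difference that met the criteria for lower 5hmC when untreated replicate 2 was left out. The log2 ratios were 0.26 for SOD1, the highest of the group, -0.44 for SOD2, the lowest, and -0.39 for SOD3, but that of SOD1 turned to -0.61 without treated replicate 4. Catalase (CAT), the peroxisomal enzyme, had 62.1, 59.7 and 68.1 in Obese-MSCs and 84.3, 36.7 and 59.6 in Lean-MSCs, and 69.4, 84.3 and 68.9 against 69.1, 67.6 and 75 with and without vitamin-C. Its log2 ratio was 0.07 in both tables, with limma intervals from -0.42 to 0.71 and from -0.43 to 0.56.

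In the NRF2 axis no gene met the criteria in either table. NFE2L2 had 146, 180 and 203 normalized counts in Obese-MSCs and 151, 172 and 117 in Lean-MSCs, with overlapping groups (log2 ratio 0.27, limma interval -0.15 to 0.69). With vitamin-C it had 217, 227 and 179 against 162, 204 and 224 (0.08, limma interval -0.35 to 0.52). These intervals leave room for moderate differences either way, and the spans of HNRNPA3 and AGPS overlap the gene. KEAP1 had 2.73, 10.5 and 9.29 in Obese-MSCs and 11.0, 3.97 and 4.13 in Lean-MSCs, and 7.05, 3.56 and 20.1 against 3.24, 11.7 and 10.2 with and without vitamin-C. Its libraries scattered more than its means differed (log2 ratios 0.23 and 0.29, which went to 0.89 without Lean replicate 7 and to -0.66 without treated replicate 6).

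NQO1, a quinone reductase and a standard NRF2 target, had 64.6, 62.6 and 54.3 normalized counts in Obese-MSCs and 58.7, 53.6 and 49.3 in Lean-MSCs. The groups overlapped and the log2 ratio of 0.17 was the lowest of the axis. With vitamin-C it had 136, 75.8 and 63.3 against 71.8, 70.8 and 59.8, and treated replicate 4 stood apart, so that the ratio of 0.44, the highest of the axis, lay between 0.04 and 0.65 with a library left out. HMOX2, the constitutive heme oxygenase, had the highest Obese to Lean log2 ratio (0.39) and the lowest with vitamin-C (-0.16).

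Methionine sulfoxide reductases repair oxidized methionine. MSRA had 22.6, 21.8 and 17.8 normalized counts in Obese-MSCs and 40.4, 32.8 and 22.7 in Lean-MSCs. The lowest Lean library lay above the highest Obese library by less than 0.01, and the gene did not meet the criteria (log2 ratio -0.62, exact permutation p = 0.1, limma adjusted p = 0.762). MSRB1, a selenoprotein, had 7.21, 3.76 and 3.64 in Obese-MSCs and 3.37, 2.98 and 2.06 in Lean-MSCs, without overlap but with a Lean mean of 2.80 under the floor.

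With vitamin-C neither gene met the criteria. MSRA had 25.2, 35.3 and 20.4 normalized counts against 25.1, 24.7 and 19.7 (log2 ratio 0.22). MSRB1 had 3.03, 2.68 and 13.7 against 7.90, 4.33 and 4.06 (0.26, the highest of the group). That ratio rests on treated replicate 6, without which the treated mean was under the floor. Limma gave MSRB1 a log2 difference of -0.045. MSRB3, a form found in mitochondria and the endoplasmic reticulum, had log2 ratios of 0.34 and 0.02, and MSRB2 was under the floor in at least 1 group of each table.

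**Figure D2:**
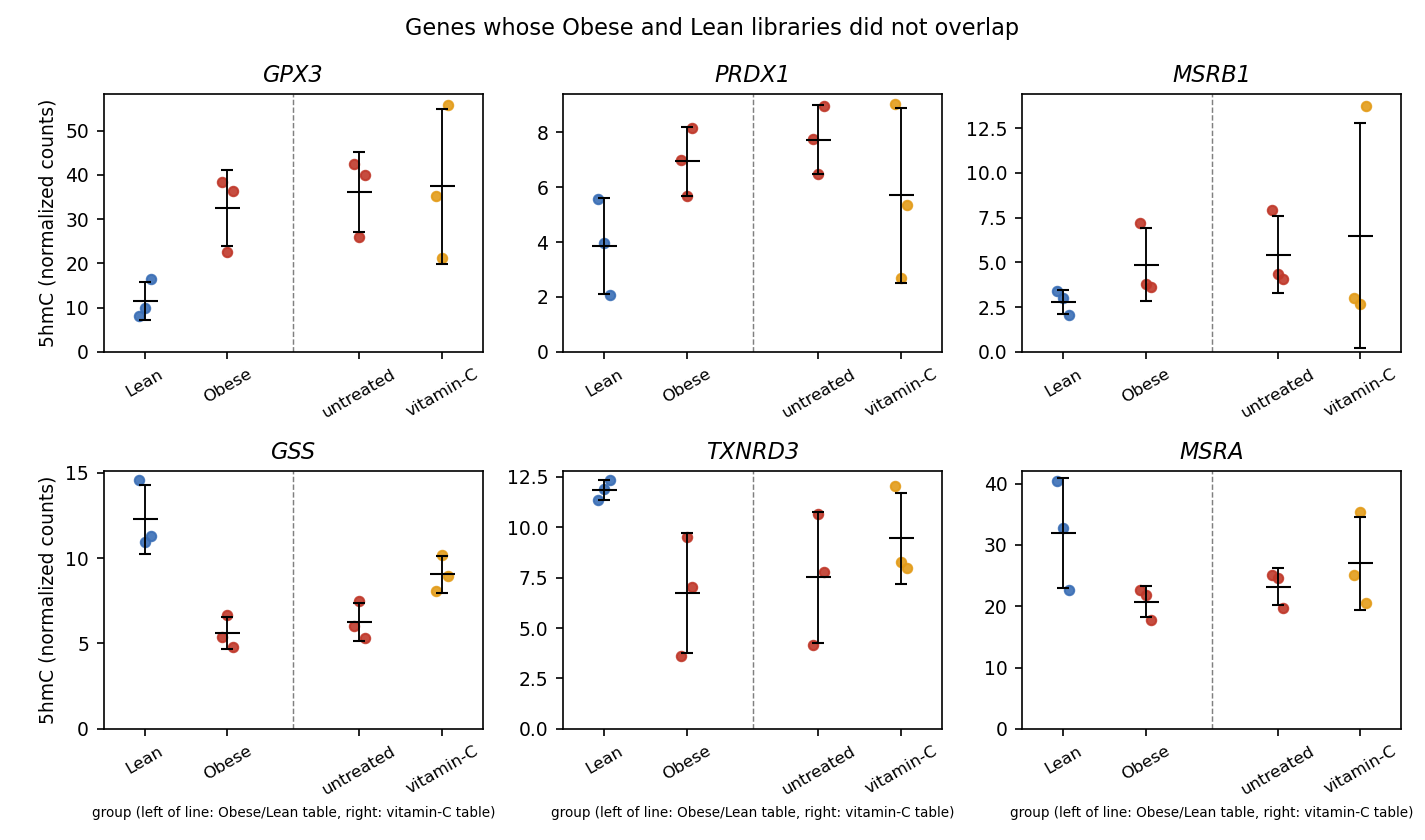
Exonic 5hmC (vertical axis, normalized counts, a separate scale for each gene) in each library (points), with group mean and SD (bars), for the 6 genes whose Obese and Lean libraries did not overlap. The vitamin-C table is right of the dashed line and was normalized separately. GSS is the gene whose groups were apart on both sides, with untreated Obese libraries at 6.66 or below and 7.48 or below, while the treated and untreated libraries of the other 5 overlapped.

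By the criteria, 1 of the 36 genes had higher 5hmC after vitamin-C (GSS, 2.78% of the genes, against 1.11% of all genes) and 0 had lower 5hmC (against 0.806%). Treated and untreated libraries did not overlap for GSS, higher, where the whole table had 3.24% higher and 2.67% lower. One gene is too few to set against these shares. Limma gave 0 of 33 genes at an unadjusted p of 0.05 or less, against 0.974% of all 15194 genes tested, and 0 at an adjusted p of 0.05 or less (0% of all genes). Group means were higher after treatment for 21 of the 36 genes (58.3%, against 51.2% of all genes). The median log2 ratio was 0.06 for the 32 genes above the floor and 0.00 for all genes. Leaving out 1 library turned the sign of 20 of the 32 ratios, again not counted over all genes. Of these 32, 30 lay within the central 95% of all genes, from -0.66 to 0.72, and the exceptions were GPX5 above and GPX7 below.

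**Figure D3:**
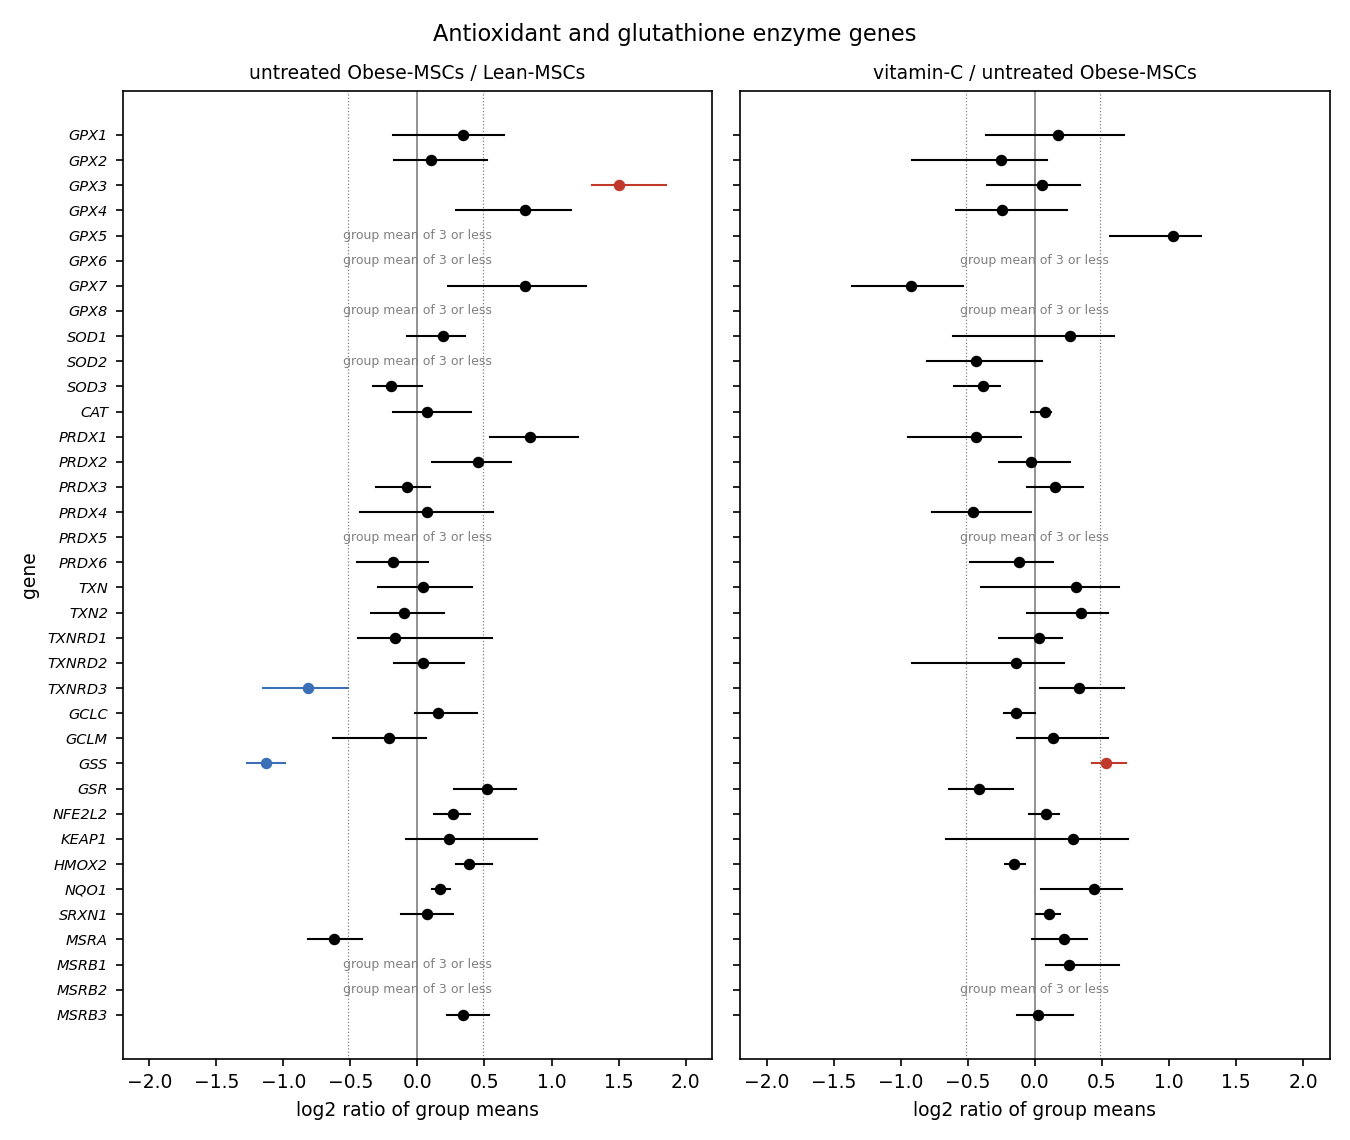
Log2 ratio of group means (horizontal axis) by gene (vertical axis, 36 genes, of which the 29 on the left and 32 on the right above the floor have a point), untreated Obese over Lean on the left and vitamin-C over untreated on the right. Points are the ratio, and lines span the ratios with each library left out in turn, where both group means stayed above the floor. Red and blue mark genes that met the criteria higher and lower, and dotted lines mark ratios of 1.4 and 0.7. GPX3 (1.5), GSS (-1.13) and TXNRD3 (-0.82) are coloured on the left and GSS (0.53) on the right.

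**Figure D4:**
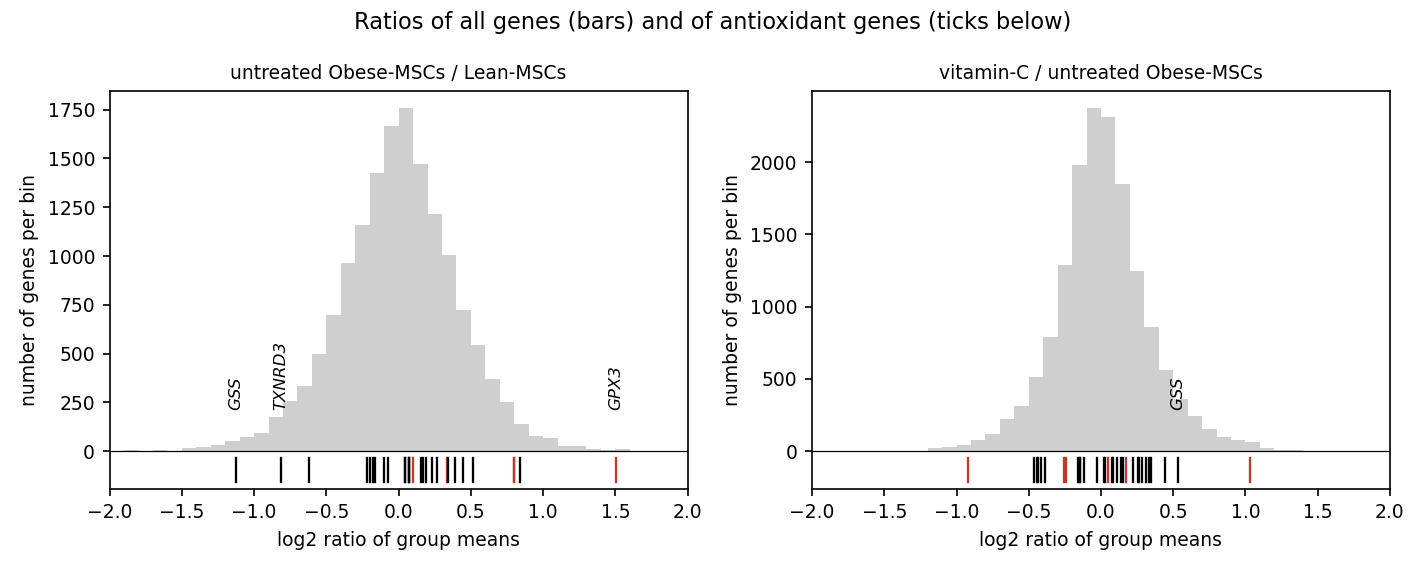
Number of genes (vertical axis) by log2 ratio of group means (horizontal axis, bins of 0.1) for all genes above the floor (bars), with the antioxidant genes above the floor as ticks below, glutathione peroxidases in red. The left panel has 29 ticks, with GPX3 at 1.5 and GSS at -1.13 in the tails, and the right panel has 32, of which 30 lie within the central 95% of all genes.

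The 36 genes varied more between Lean libraries (median coefficient of variation 32.6% over those above the floor) than between Obese libraries (21.2%). All genes above the floor had 23.9% and 25.7%. Lean replicate 7 held the highest Lean value for 14 of 29 genes, and for 35.5% of all genes above the floor. In the vitamin-C table the median was 39.4% in treated and 26.2% in untreated libraries, against 28.0% and 25.4% for all genes. Treated replicate 4 held the highest treated value for 14 of 32, and for 35.0% of all genes above the floor. Untreated replicate 1 likewise held the highest untreated value for 14 of 32, and for 33.1% of all genes above the floor. These spreads and counts are a description and were not tested.

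The untreated values were higher in the second table than in the first by a median of 1.11, 1.13 and 1.1 times for replicates 1, 2 and 3, over all genes as over the antioxidant genes. Each table was normalized on its own. Lean and treated libraries are therefore not compared with each other.

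Further genes of the pathway were taken from 7 lists, of which 136 of 147 genes were in both tables. In Obese-MSCs against Lean-MSCs 3 of the 136 (2.21%) met the criteria as higher and 0 as lower, against 2.07% and 2.43% of all genes, with a median log2 ratio of 0.06 over those above the floor. The count is near the background, and the 3 genes are named as a description. MAFF, a small Maf protein of the family that pairs with NRF2 on DNA, had 110, 116 and 112 normalized counts in Obese-MSCs and 47.8, 77.5 and 71.9 in Lean-MSCs. MAT1A, which makes S-adenosylmethionine, had 19.4, 15.1 and 23.3 in Obese-MSCs and 10.2, 9.93 and 8.23 in Lean-MSCs. GGT6, a gamma-glutamyltransferase family gene, had 6.84, 10.5 and 8.27 in Obese-MSCs and 4.55, 4.96 and 5.13 in Lean-MSCs. The groups did not overlap in these 3 genes, and the log2 ratios were 0.78, 1.03 and 0.80 with limma adjusted p-values of 0.668, 0.668 and 0.794. Groups without overlap were not limited to them. Of the 136 genes, 10 were higher and 3 lower in Obese-MSCs without overlap, where the whole table had 5.70% higher and 6.06% lower.

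After vitamin-C, 2 of the 136 genes (1.47%) met the criteria as higher and 0 as lower, against 1.11% and 0.806% of all genes, with a median log2 ratio of 0.02. This count too is near the background. PDIA4, a disulfide isomerase of the endoplasmic reticulum, had 21.1, 28.7 and 26.0 normalized counts with vitamin-C and 17.3, 17.2 and 16.9 without (log2 ratio 0.56, limma adjusted p = 1.00). TXNDC9, a thioredoxin-domain protein, had 2.02, 3.70 and 5.44 with vitamin-C, and its untreated libraries were all at 1.1 or below, with a mean of 0.358 under the floor. By list, the genes that met the criteria belonged to glutathione turnover (GGT6), cysteine supply (MAT1A), NRF2 partners (MAFF) and thioredoxin relatives (PDIA4 and TXNDC9). The lists of selenoproteins (22 genes), NADPH supply (19) and heme, iron and quinone handling (21) held none, and at the background shares lists of this size hold less than 1 higher and less than 1 lower, so nothing is read from this.

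The cell type could not be checked by 5hmC, which does not report expression. The summed 5hmC of 3 MSC markers (NT5E, THY1 and ENG) was 94.8 to 123 normalized counts in Obese-MSCs and 80.1 to 88.4 in Lean-MSCs, without overlap. In the vitamin-C table their sums overlapped, at 86.5 to 125 with vitamin-C and 104 to 139 without. The sum of 5 endothelial markers did not overlap there, at 193 to 246 with vitamin-C and 252 to 257 without. In the first table it overlapped, at 227 to 231 in Obese-MSCs and 186 to 264 in Lean-MSCs. None of these markers met the criteria, other than TEK, an endothelial gene, lower in Obese-MSCs, where 2.43% of all genes were called lower. The sums of markers that MSCs lack, and of adipocyte, leukocyte and smooth muscle markers, overlapped between the groups of both tables, with CD3E, a leukocyte gene, lower in Obese-MSCs by the criteria. Any part of cell makeup in the values of GPX3, GSS and TXNRD3 was not tested. The spans of 12 of the 36 genes, GSS and MSRA among them, are overlapped by another RefSeq gene.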

How the data were processed

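hMeDIP-seq libraries of swine MSCs (3 Lean, 3 untreated Obese and 3 vitamin-C-treated Obese) were analysed from 2 deposited tables, grouped by the submitters' labels. The authors aligned reads with Bowtie2 2.3.3.1 to the porcine assembly Sscrofa11.1 (susScr11), removed duplicates with Picard 1.67, counted exonic reads with HTSeq 0.9.1 and processed them with edgeR 3.28.1. The deposited signal is normalized counts per gene, and the edgeR step is not given in the sources used here. Whole reads could not be recovered in most libraries, so no count test was run. Numerical residue (645 values below 1e-06, all in the vitamin-C table) was set to 0, and 25 gene names there had become dates.

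Limma 3.58.1 (R 4.3.3) was fitted with a trend to log2(value + 1) over the upper 80% of genes by mean. The pseudocount understates changes of low genes. Exact tests enumerated 20 arrangements. Python 3.11.15, numpy 2.4.6, pandas 2.3.3, scipy 1.17.1 and matplotlib 3.10.9 were used. The procedures were tested on simulated whole counts, with changes placed only in genes above the median mean. That test does not bear on calls at low values.

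The genes, lists, tests and alternatives were chosen with earlier results of these data known. Values in every library are given for the GPX genes, NFE2L2, KEAP1, NQO1, SOD1, SOD2, SOD3, CAT, and genes that met the criteria or had groups apart by 1.4 or 0.7. For the rest, the highest and lowest ratio of each role and the pathway genes that met the criteria are named. Positions are RefSeq's on Sscrofa11.1. The alternatives were other thresholds, scales, pseudocounts, filters and normalizations, and each library left out. The values are relative within a table, so a change in total 5hmC would not be visible.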

Additional observations from a re-analysis of the deposited data

How the results depend on the processing

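Some counts of antioxidant genes that met the criteria depended on the settings. With a p threshold of 0.01, 0 instead of 1 were higher and 1 instead of 2 lower in Obese-MSCs, and 0 instead of 1 higher after vitamin-C, while the counts over all genes went from 391 to 86, from 461 to 130 and from 211 to 36. On the log2(value + 1) scale and with quantile normalization, 1 was lower in Obese-MSCs (470 of all genes each time), and TXNRD3 was lost both times. With a ratio of 1.5, 0 were higher after vitamin-C (184 of all genes). When single libraries were left out, the counts ranged from 0 to 2 higher and 1 to 2 lower in Obese-MSCs, and from 0 to 1 higher and 0 to 1 lower after vitamin-C. Over all genes they ranged from 268 to 488 and 380 to 502, and from 196 to 364 and 156 to 245. The genes differed between these settings. GSR without Obese replicate 3, PRDX1 without Lean replicate 7, HMOX2 without Lean replicate 8, and MSRB3 and MSRA without Lean replicate 9 met the criteria in the first table. GPX6 and GPX7 did so without untreated replicate 3, and SOD3 without untreated replicate 2, in the second. The cause was not tested. Limma gave 0 antioxidant genes under each of 12 alternatives per table (and 1 gene of the whole table without Obese replicate 1 or Obese replicate 2), with a lowest adjusted p among them of 0.349 to 0.961 in the first and 1 in the second. Rescaling and quantile normalization turned no log2 ratio of the 29 and 32 genes above the floor. Leaving out a library turned the sign of 16 and 20, GPX3, GSS and TXNRD3 not among the 16. Such sign changes were not counted over all genes. No paired analysis was possible because the groups compared share no replicate numbers and the labels match no cultures, although treated and untreated cultures may share pigs. Having 3 libraries a group and an unknown read depth limits what can be told apart at low values.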
